A study of Mus musculus with 2 samples.

Results

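Erythroid lineage genes were followed in the RNA of microglia sorted from mouse brain. The set held 9 genes: the 4 adult globin genes Hba-a1, Hba-a2, Hbb-bs and Hbb-bt, the precursor genes Alas2, Slc4a1, Klf1 and Gata1, and the erythropoietin receptor gene Epor. They were taken by symbol from the 53801 genes counted in each library, through their Ensembl identifiers, and all 9 were found in both libraries. The members were chosen by their CPM in these same libraries, with their contrast between globins, precursor genes and Epor in view, so the differences between the libraries given here describe them and were not tested. The members were divided into globins and precursor genes so that globin RNA and the RNA of the precursor genes could be read apart.

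The series examined microglia after stroke surgery, and 2 sham libraries are described here. Both came from Cx3cr1CreER/wt mice. In this genotype a Cre recombinase that needs tamoxifen replaces the gene on one Cx3cr1 allele, and these mice were the wild-type background of the study, with no floxed gene named in the labels. The Cre follows the Cx3cr1 promoter, which is active in microglia and other myeloid cells. Tamoxifen was given at 75 mg/kg per day for 4 days, sham surgery followed 14 days after the first injection, and cells were taken 3 days after the sham surgery. The labels describe male mice of 8 to 10 weeks, whereas the methods of the study give an older range and both sexes, and the treatment of each sample is labelled as none although its title names sham surgery. Brains were perfused before the cells were isolated on Percoll, and each library held the cells of 1 mouse, sorted as CD11c-Ly6G-CD11b+CD45low. No antibody to a red cell or erythroid antigen was part of this gate. The libraries of the stroke arm were not analysed here, so no contrast between conditions was made.

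Red cells mature in the bone marrow from progenitors that respond to erythropoietin. GATA1 and KLF1 switch on the genes of the lineage, ALAS2 starts heme synthesis, the alpha and beta globin chains join with heme to form hemoglobin, and the anion exchanger SLC4A1 (band 3) enters the membrane. The nucleus is then expelled, so that reticulocytes and young red cells hold globin mRNA with little of the RNA of the early regulators. Microglia are the resident macrophages of the brain and do not belong to this lineage.

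The summed gene counts were 23381026 for sham library 1 and 41142609 for sham library 2, a depth 1.76 times as large. Levels are counts scaled to 1000000 gene counts of the library (CPM). Where a gene has no count, a true level of 3 counts cannot be told from 0, which is 0.128 CPM in the shallower and 0.0729 CPM in the deeper library. All intervals are 95% intervals of counting error only, computed as if each count were independent. Amplified reads are not independent molecules, so these intervals may be too narrow. The 2 libraries give no more than 1 difference between mice. Over 13455 genes, edgeR put the biological coefficient of variation of the pair at 0.479. The 10 microglia markers made up 3.91% of library 1 and 4.44% of library 2 by counts, and all 10 were present in both. Library 2 stood apart in its leukocyte genes: 9 genes of immature neutrophils summed to 1640 CPM in library 1 and 31087 CPM in library 2.

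The sequences of the globin genes come first, because they limit how their counts can be read. On chromosome 11 the alpha globin genes Hba-a1 and Hba-a2 have coding sequences of 429 bases each that differ at 1 base, C381T, counted from 1 at the A of the start codon with the base of Hba-a1 first. On chromosome 7 the beta globin genes Hbb-bs and Hbb-bt have coding sequences of 444 bases that differ at 1 base, C417T, with the base of Hbb-bs first. Both changes leave the amino acid unchanged, so each pair encodes 1 protein. The coding strand around each difference is shown 5′ to 3′, read from the GENCODE M21 transcripts of GRCm38, with the differing base in capitals. The alpha windows lie at chr11:32284313-32284373 (plus strand) and chr11:32297130-32297190 (plus strand), and the beta windows at chr7:103826665-103826722 (minus strand) and chr7:103812656-103812713 (minus strand), all in coding exons.
Hba-a1: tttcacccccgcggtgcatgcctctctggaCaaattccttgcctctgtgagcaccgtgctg
Hba-a2: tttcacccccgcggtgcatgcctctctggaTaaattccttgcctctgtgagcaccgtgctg
Hbb-bs: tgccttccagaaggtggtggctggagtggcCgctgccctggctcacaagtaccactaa
Hbb-bt: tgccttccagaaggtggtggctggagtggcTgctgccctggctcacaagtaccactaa

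Reads of 75 bases can tell the genes of a pair apart only where they touch this base or the more divergent ends of the transcripts. Of the 625 possible 75-base stretches of the longest Hba-a1 transcript, 389 (62.2%) also occur in Hba-a2, and the same 389 make up 81.0% of the 480 stretches of Hba-a2. The beta genes share 356 stretches, which are 64.3% of the 554 of Hbb-bs and 56.6% of the 629 of Hbb-bt. How reads that match 2 genes were counted is not given in the sources used here, so the split within each pair is uncertain. The sums of the alpha and of the beta genes do not depend on that split. They would still be too low if such reads were left out of the counts. Among the other members, Alas2 shared 238 of its 1963 stretches (12.1%) with Apex2, a DNA repair gene that overlaps it on the opposite strand, and Slc4a1, Klf1, Gata1 and Epor shared none with another gene.

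**Figure D1:**
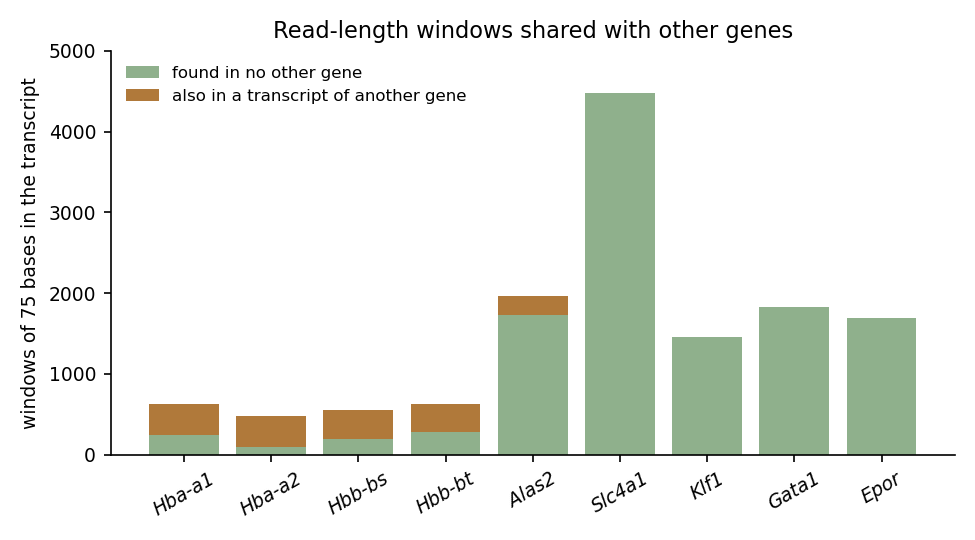
Stretches of 75 bases in the longest transcript of each member (y axis, number of stretches), stacked as those found in no other gene (lower part) and those also found in another gene (upper part). The 4 globins share between 56.6% and 81.0% of their stretches with their partner gene, Alas2 shares 12.1% with Apex2, and the other 4 members share none.

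Globin RNA was counted almost entirely in library 2. The 4 adult globin genes held 1 count in library 1 against 560 in library 2, or 0.0428 CPM and 13.6 CPM (12.5 to 14.8). At the level of library 2, library 1 would have held 318 globin counts at its own depth. In sorted bulk RNA, fewer cells of a type and less RNA per cell cannot be told apart, here as in the results that follow.

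Hbb-bs, the main adult beta globin gene of the reference strain (ENSMUSG00000052305, chr7:103826534-103828096, minus strand), had no count in library 1 against 255 in library 2, or 6.20 CPM (5.46 to 7.01). Its mean was 3.10 ± 4.38 CPM (SD, n = 2), a spread larger than the mean. Its level was at least 48.3-fold higher in library 2 when library 1 was set to the 3 counts that a count of 0 allows. Every fold given as at least is set this way and leaves out the counting error of library 2. For Hbb-bs the exact counting interval of the ratio began lower, at 39.0. The second beta gene Hbb-bt (ENSMUSG00000073940, chr7:103812524-103813996, minus strand) had 0 and 31 counts, with 0.753 CPM (0.512 to 1.07) in library 2, at least 5.87-fold higher. The beta genes together thus had 0 counts against 286.

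Hba-a1, an adult alpha globin gene (ENSMUSG00000069919, chr11:32283511-32284465, plus strand), had 1 count in library 1 against 225 in library 2. These are 0.0428 CPM (0.00108 to 0.238) and 5.47 CPM (4.78 to 6.23), a mean of 2.76 ± 3.84 CPM (SD, n = 2) and a ratio of 128 whose counting interval runs from 22.7 to 5073. Its near-copy Hba-a2 (ENSMUSG00000069917, chr11:32296489-32297298, plus strand) had 0 and 49 counts, with 1.19 CPM (0.881 to 1.57) in library 2, at least 9.28-fold higher.

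Alpha and beta globins had nearly the same summed counts in library 2. The alpha genes took 274 of the 560 globin counts, or 48.9% (Wilson interval 44.8 to 53.1). The ratio of alpha to beta counts was 0.958 (0.809 to 1.13), or 0.932 per length of exon. Stretches that no other gene shares number 236 for Hba-a1, 91 for Hba-a2, 198 for Hbb-bs and 273 for Hbb-bt. If shared reads were left out of the counts, these ratios would not compare the levels of alpha and beta. Within the pairs as counted, Hba-a1 took 82.1% (77.1 to 86.2) of the alpha counts and Hbb-bs took 89.2% (85.0 to 92.3) of the beta counts. Per 100 stretches that no other gene shares, the counts in library 2 were 95.3 for Hba-a1, 53.8 for Hba-a2, 129 for Hbb-bs and 11.4 for Hbb-bt, so on this scale the lead of Hba-a1 over Hba-a2 was smaller and the order within each pair was kept. The 6 embryonic and minor globin genes (Hba-x, Hbq1a, Hbq1b, Hbb-bh1, Hbb-bh2 and Hbb-y) had 0 counts in both libraries, although 3 of them lie directly beside Hba-a1 or Hba-a2. Of the globins used outside the erythroid lineage, Cygb had 0 and 3 counts, Ngb 0 and 1, and Mb 0 in both.

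**Figure D2:**
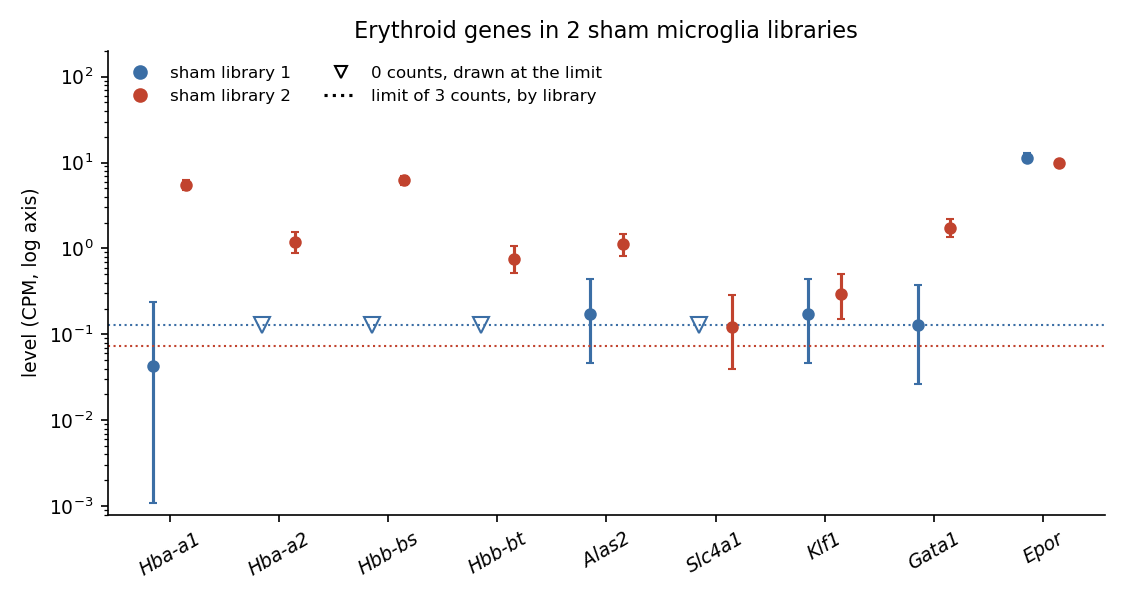
Level of each of the 9 members in sham library 1 and sham library 2 (y axis, CPM on a log axis, bars are 95% counting intervals, open triangles are counts of 0 drawn at the limit of 3 counts, and dotted lines give that limit for each library). Epor lies at 11.4 and 9.75 CPM, while every other member is at 4 counts or fewer in library 1, with its point for library 2 above that of library 1 except for Slc4a1, whose 5 counts lie at the limit of library 1.

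Precursor genes were present in library 2 beside the globins. Alas2, Slc4a1, Klf1 and Gata1 together had 11 counts in library 1 against 135 in library 2, or 0.470 CPM (0.235 to 0.842) and 3.28 CPM (2.75 to 3.88), a ratio of 6.97 (3.78 to 14.3). Gata1 held 72 and Alas2 held 46 of the 135 counts. The ratio of the summed globins between the libraries was 318 (56.9 to 12592), which rests on 1 count in library 1. The contrast between globins and precursor genes was in view when the members were chosen, so both ratios are given as a description.

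Gata1, the master transcription factor of the erythroid, megakaryocyte, mast cell and eosinophil lineages (ENSMUSG00000031162, chrX:7959260-7978071, minus strand), had 3 counts in library 1 against 72 in library 2. Its levels were 0.128 CPM (0.0265 to 0.375) and 1.75 CPM (1.37 to 2.20), a ratio of 13.6 (4.48 to 67.7), with a mean of 0.939 ± 1.15 CPM (SD, n = 2). This was the largest ratio among the 3 precursor genes counted in both libraries, but its interval overlapped those of Alas2 and Klf1.

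Alas2 encodes the erythroid form of the first enzyme of heme synthesis (ENSMUSG00000025270, chrX:150547375-150570638, plus strand). It had 4 counts in library 1 against 46 in library 2, or 0.171 CPM (0.0466 to 0.438) and 1.12 CPM (0.819 to 1.49), a ratio of 6.54 (2.39 to 25.0) and a mean of 0.645 ± 0.670 CPM (SD, n = 2). The whole Alas2 gene lies inside the span of Apex2, which had 282 and 591 counts (12.1 and 14.4 CPM). Mir3620, which also overlaps Alas2, had no counts. The strand setting of the counting is not given in the sources used here, so reads of Alas2 and Apex2 cannot be told apart where their exons overlap.

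Klf1, the erythroid factor that binds CACCC sequences and activates adult beta globin (ENSMUSG00000054191, chr8:84901928-84905291, plus strand), had 4 and 12 counts. These are 0.171 CPM and 0.292 CPM (0.151 to 0.509), with a mean of 0.231 ± 0.0853 CPM (SD, n = 2), and the ratio of 1.70 (0.517 to 7.25) includes 1, so a difference was not detectable at this depth. Slc4a1, the gene of band 3 (ENSMUSG00000006574, chr11:102348824-102366203, minus strand), had no count in library 1 against 5 in library 2, or 0.122 CPM (0.0395 to 0.284), with a mean of 0.0608 ± 0.0859 CPM (SD, n = 2). At the level of library 2 only 2.84 counts would fall in library 1, which is within what a count of 0 allows, so no fold is given.

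Epor, the receptor through which erythropoietin acts on progenitors, was counted well in both libraries (ENSMUSG00000006235, chr9:21958897-21963506, minus strand). It had 266 counts in library 1 against 401 in library 2, or 11.4 CPM (10.1 to 12.8) and 9.75 CPM (8.82 to 10.7), a mean of 10.6 ± 1.15 CPM (SD, n = 2). The log2 ratio of library 2 to library 1 was -0.22 in CPM and changed sign with the scaling, to 0.0072 after TMM and 0.052 with DESeq2 size factors, so no direction is given. In CPM the ratio was 0.857 (0.732 to 1.00). Epor took 95.7% (92.6 to 97.5) of the counts of all 9 members in library 1 and 36.6% (33.8 to 39.5) in library 2.

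Set per length of exon (RPKM, CPM divided by kilobases of exon), Hbb-bs at 8.07 and Hba-a1 at 6.73 RPKM were the most abundant members of library 2, with overlapping counting intervals. Epor followed at 4.90 RPKM, below both beyond counting error. Below Epor beyond counting error, Hba-a2 at 1.79, Hbb-bt at 1.07, Gata1 at 0.718 and Alas2 at 0.465 RPKM formed a descending order in which each neighbour overlapped the next. Klf1 at 0.191 RPKM and Slc4a1 at 0.0248 RPKM were lowest, each below the member before it beyond counting error. In library 1 Epor at 5.72 RPKM stood alone, and Klf1 at 0.112, Alas2 at 0.0712, Hba-a1 at 0.0527 and Gata1 at 0.0526 RPKM overlapped each other. The RPKM of the globins carries the uncertainty of the reads shared within each pair.

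Globin counts were also set against precursor counts within a library, a ratio that does not depend on the scaling between libraries. Gata1, with 72 of the 135 precursor counts in library 2, is also expressed by mast cells, basophils and eosinophils, so these counts are not all known to be erythroid. In library 2 there were 12.2 globin counts per Alas2 count (9.005 to 16.8), 7.78 per Gata1 count (6.08 to 10.1) and 4.15 per count of the 4 precursor genes (3.43 to 5.04). Per length of exon these ratios were 38.0, 24.6 and 12.6. In library 1 the single globin count gave 0.0909 per precursor count (0.0021 to 0.625). These ratios would be too low if reads shared within a globin pair were left out of the counts. They too are a description, since the members were chosen with this contrast in view. Leaving out Epor, globins took 1 of 12 member counts in library 1, or 8.33% (1.49 to 35.4), and 560 of 695 in library 2, or 80.6% (77.5 to 83.3). With Epor included the globin shares were 0.360% (0.0635 to 2.01) and 51.1% (48.1 to 54.0).

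Against all genes the members can be placed as follows. Of the 15736 genes with at least 10 counts in a library, 11.2% were over 2-fold higher in library 2 and 26.0% were over 2-fold lower, and the median log2 ratio was -0.18. Of the 8 members in that comparison, 6 were over 2-fold higher, none was lower, and Klf1 and Epor were within 2-fold. The choice of the members used these levels, and 7 of the 8 entered the comparison only through their counts in library 2. Of the 1673 genes that entered that way, 58.8% were over 2-fold higher, so nothing is read from the count of members. Slc4a1, with 5 counts, stayed out of it. Among the tested genes, 8 had a log2 ratio at or above that of Hbb-bs, 10 at or above Hba-a1, 86 at or above Gata1, 313 at or above Alas2, 2317 at or above Klf1 and 8070 at or above Epor. TMM scaling turned the split of 1755 higher and 4094 lower genes into 2334 and 3270, and DESeq2 size factors into 2444 and 3124, with medians of 0.05 and 0.09.

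**Figure D3:**
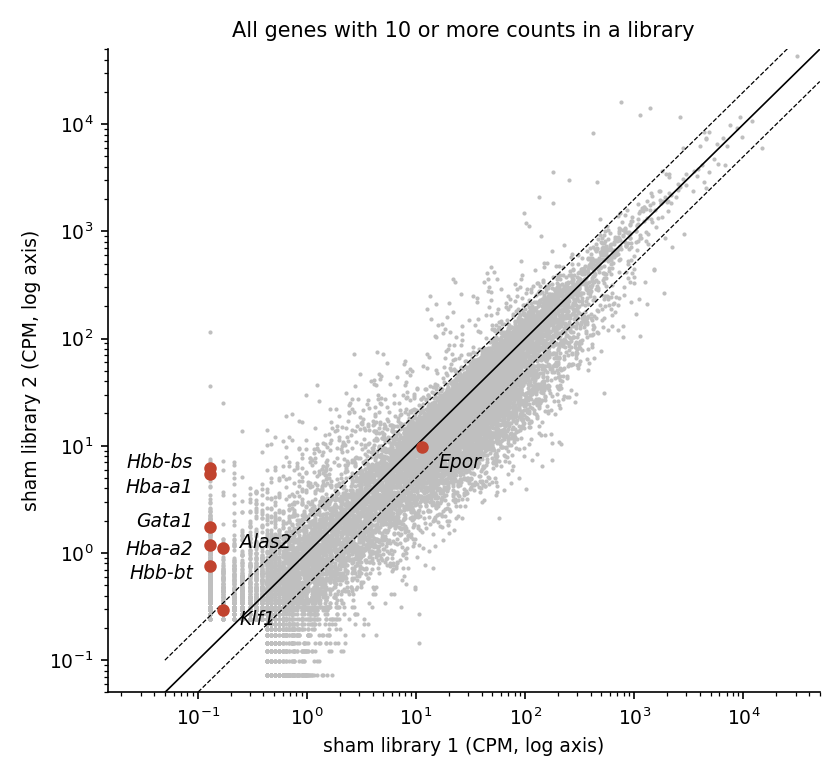
CPM of each gene with at least 10 counts in a library in sham library 1 (x axis) and sham library 2 (y axis), both on log axes, with counts under 3 drawn at 3 counts, the line of equal levels solid and the 2-fold lines dashed. Epor lies between the 2-fold lines, Klf1 on the inner side of the upper line, and the 4 globins, Gata1 and Alas2 above it.

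The promoters of the members were compared by short motifs, none of which was found in all of them. Windows of 250 bases before and 50 after the RefSeq start (GRCm38.p6) were found for 8 of the 9 members, all but Slc4a1. They were searched on both strands for the GATA motif (AGATAA or AGATAG or TGATAA or TGATAG) bound by GATA factors, the CACCC motif (CCNCNCCC) bound by KLF1 and related factors, CCAAT, and ATATAA, which can overlap the GATA motif. The GATA motif was in 6 of the 8 windows and in 29.8% of all 32851 promoter windows, and the CACCC motif in 5 of the 8 and in 49.5% of all. CCAAT was in 5 of the 8 against 37.4% of all. ATATAA was in 4 of the 8, the 4 globins, against 9.82% of all. Hbb-bs, Alas2 and Epor held both a GATA and a CACCC motif, as did 10.2% of all windows. A match is a run of letters and not a measured site.

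The 250 bases before the start are shown 5′ to 3′ on the strand of the gene for the most abundant alpha and beta globin genes, for Alas2, a precursor gene that was higher in library 2, and for Epor, which stood near the same level in both. Capitals mark GATA, CACCC and CCAAT motifs on either strand. Hba-a1 lies at chr11:32283422-32283671 (plus strand), Hbb-bs at chr7:103827929-103828178 (minus strand), Alas2 at chrX:150547167-150547416 (plus strand) and Epor at chr9:21963577-21963826 (minus strand).
Hba-a1: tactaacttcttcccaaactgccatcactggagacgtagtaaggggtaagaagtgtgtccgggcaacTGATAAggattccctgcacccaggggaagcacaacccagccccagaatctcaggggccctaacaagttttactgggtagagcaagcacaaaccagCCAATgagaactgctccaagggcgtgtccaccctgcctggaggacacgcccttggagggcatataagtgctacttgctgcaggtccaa
Hbb-bs: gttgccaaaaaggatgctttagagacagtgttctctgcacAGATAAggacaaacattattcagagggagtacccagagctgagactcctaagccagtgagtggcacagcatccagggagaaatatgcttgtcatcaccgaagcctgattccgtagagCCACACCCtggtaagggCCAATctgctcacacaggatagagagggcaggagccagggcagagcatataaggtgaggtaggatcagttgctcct
Alas2: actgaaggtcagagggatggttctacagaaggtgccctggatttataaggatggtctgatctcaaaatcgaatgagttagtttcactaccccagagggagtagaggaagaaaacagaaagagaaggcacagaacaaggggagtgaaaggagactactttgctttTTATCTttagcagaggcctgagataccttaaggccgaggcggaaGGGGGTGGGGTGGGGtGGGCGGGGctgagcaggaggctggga
Epor: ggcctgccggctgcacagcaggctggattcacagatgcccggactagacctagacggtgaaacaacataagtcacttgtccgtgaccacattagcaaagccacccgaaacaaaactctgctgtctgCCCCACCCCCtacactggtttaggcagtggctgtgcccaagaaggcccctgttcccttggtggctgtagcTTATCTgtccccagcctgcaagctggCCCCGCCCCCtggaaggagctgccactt

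The windows of Hba-a1 and Hba-a2 were identical over all 297 bases compared, whereas those of Hbb-bs and Hbb-bt agreed at 168 of 299 bases (56.2%). The Hbb-bt window held the CACCC motif, as well as CCAAT and ATATAA, and no GATA motif, and the Gata1 window held the CACCC motif alone. Epor and Alas2 held the same kinds of motif in these windows. Whether the motifs bear on the ratios between the libraries was not tested.

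Heme synthesis genes other than Alas2 were expressed in both libraries. Heme is made in every nucleated cell, and outside the erythroid lineage its first step is carried out by ALAS1. Of 12 genes of heme synthesis and mitochondrial transport, which leave out Alas2, 11 were within 2-fold between the libraries and 1 was lower in library 2, and their sum was 655 and 727 CPM. Alas1 was at 184 and 239 CPM, Tmem14c, a mitochondrial porphyrin transporter, at 122 and 141 CPM, and Fech, which inserts the iron, at 71.5 and 67.8 CPM. The gene that was lower was Abcb10, a mitochondrial transporter that was named after its values were seen, at 19.2 and 4.59 CPM. Alas2 made up 0.0930% (0.0362 to 0.239) of the counts of Alas1 and Alas2 in library 1 and 0.465% (0.349 to 0.619) in library 2.

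**Figure D4:**
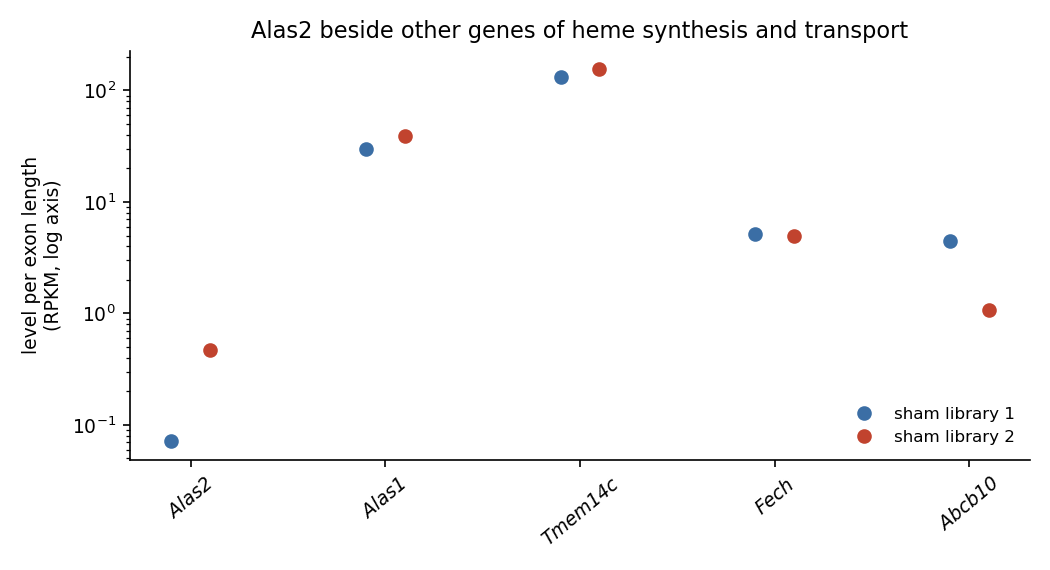
Levels of Alas2 and of 4 genes of heme synthesis and mitochondrial transport, Alas1, Tmem14c, Fech and Abcb10, in sham library 1 and sham library 2 (y axis, RPKM on a log axis, 1 point per library). The 4 genes lie between 4.45 and 133 RPKM in library 1 and between 1.07 and 155 RPKM in library 2, and Alas2 lies below them in both, at 0.0712 and 0.465 RPKM.

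Other red cell genes were mostly within 2-fold or lower in library 2. Of 15 genes of the red cell membrane and skeleton, 9 reached 10 counts in a library, and of these 1 was over 2-fold higher in library 2, 4 were lower and 4 were within 2-fold. Their sum was 88.4 and 36.6 CPM, while the median log2 ratio of the 9 genes was 0.11, so sum and median differed in sign. Epb41 (band 4.1) had 51.2 and 10.8 CPM, Dmtn (dematin) 11.6 and 12.5, Ermap 13.99 and 4.76, and Sptb (beta spectrin) 5.73 and 1.24 CPM. Kel and Icam4 had 0 counts in both libraries. Several of these genes are also used outside red cells.

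For late erythroid cytosolic and maturation genes, 12 of the 13 listed matched and 7 were tested, of which 2 were higher in library 2, 2 lower and 3 within 2-fold. The carbonic anhydrase gene Car2 had 1.198 and 14.7 CPM, a ratio of 12.3 (8.42 to 18.7), and Car1, named after its values were seen, had 0 and 35 counts, at least 6.63-fold higher. Xpo7 had 54.0 and 8.46 CPM, Fam210b 35.8 and 25.8 CPM and Bpgm, which makes the bisphosphoglycerate of red cells, 12.4 and 14.3 CPM. Trim58 and Pklr, the gene of the red cell pyruvate kinase, had 0 counts in both libraries. The list summed to 105 and 65.1 CPM, while the median log2 ratio of its tested genes was 0.20, so sum and median differed in sign.

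Partners of Gata1 and Klf1 in transcription were mixed. Of 11 genes 10 were tested, with 4 over 2-fold higher in library 2, 3 lower and 3 within. Lmo2, a bridging subunit of GATA complexes, had 203 and 181 CPM, Zbtb7a, a repressor of globin genes, 146 and 123 CPM, and Ldb1, a partner of LMO2, 108 and 20.3 CPM. Nfe2, a globin activator that neutrophils and megakaryocytes also express, had 15.7 and 135 CPM, a ratio of 8.58 (7.72 to 9.56). The other 3 higher genes, named after their values were seen, were Myb with 10 and 154 counts, Gata2 with 4 and 55 and Gfi1b with 11 and 57, and all 3 are also used in other progenitors and granulocyte lineages. Beside Ldb1 the lower genes were Zfpm1, a cofactor of GATA1, with 282 and 32 counts, a ratio in CPM of 0.0645 (0.0433 to 0.0931), and Tal1 with 354 and 267, a ratio in CPM of 0.429 (0.364 to 0.504), both also named after their values were seen. The direction of the summed list changed with the scaling, from a log2 ratio of -0.08 in CPM to 0.15 after TMM.

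Genes of erythropoietin and stem cell factor signalling differed widely in level, and the ligand gene Epo had 0 counts in both libraries. Of 12 genes 10 were tested, with 1 over 2-fold higher in library 2, 3 lower and 6 within 2-fold. The kinase gene Lyn had 816 and 798 CPM, the survival gene Bcl2l1 251.1 and 131 CPM, Csf2rb, the common beta chain of cytokine receptors, 247 and 70.4 CPM and Stat5b 95.3 and 64.3 CPM. The summed list had 1475 and 1093 CPM, most of it from Lyn.

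The genes nearest to the members in the genome were within 2-fold between the libraries where they reached 10 counts and were not members themselves. Next to Epor, Swsap1 had 12.7 and 14.8 CPM and Rgl3 16.0 and 8.19 CPM. Next to Klf1, Gcdh had 23.6 and 21.9 CPM and Dnase2a 134 and 135 CPM. Beside Slc4a1, Ubtf had 84.9 and 53.9 CPM and the long noncoding RNA Bloodlinc had 0 counts in both, and Glod5 beside Gata1 also had 0 in both.

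Markers of several other cells moved with the globins and Gata1. Of 8 basophil and mast cell genes all 8 were over 2-fold higher in library 2, with a sum of 36.4 and 388 CPM. Hdc, the histamine synthesis gene, had 36.2 and 219 CPM, and none of the 8 was at 0 in both. Prss34 and Mcpt8, basophil protease genes named after their values were seen, had no count in library 1 against 4743 and 1484 in library 2, at least 898-fold and 281-fold higher. Of 7 eosinophil genes 6 were higher, with a sum of 42.0 and 97.0 CPM and Siglecf, the 1 gene within 2-fold and the bulk of the sum in library 1, at 36.3 and 41.8 CPM. Of the others, named after their values were seen, Prg2 had 29 and 1518 counts, a ratio of 29.7 (20.6 to 44.6), and Epx had 0 and 101. These lineages also express Gata1 and Gata2. Their part in the levels of Gata1 was not tested.

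Neutrophil, dividing cell and choroid plexus genes were also higher in library 2. All 9 immature neutrophil genes were over 2-fold higher in library 2, with Ngp at 749 and 16031 CPM, and 8 of 9 mature neutrophil genes were, with a sum of 3523 and 31667 CPM and S100a8 at 1396 and 14266 CPM. All 8 genes of dividing cells were higher, with a sum of 29.2 and 158 CPM and Cdk1 at 6.29 and 25.2 CPM. Of 6 choroid plexus genes 5 were higher, with a sum of 24.5 and 373 CPM and Ttr at 21.9 and 356 CPM. Their part in the globin and precursor levels was not tested, and with 1 library at each level the lists cannot be told apart from one another.

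The megakaryocyte, endothelial and glial sums were nearly level in CPM, and the neuronal sum was higher in library 2. The 10 megakaryocyte and platelet genes had 125 and 126 CPM, nearly all of it from Pf4 at 79.8 and 64.5 CPM and Gp9 at 43.6 and 60.6 CPM. Of the 5 tested genes of that list, 1 was over 2-fold higher in library 2, 1 was lower and 3 were within. The higher gene was Itga2b with 2 and 20 counts and the lower was Treml1 with 18 and 3. Gp9, Itga2b and Treml1 were named after their values were seen, and Gp6 was at 0 in both libraries. Endothelial genes had 6.24 and 6.34 CPM, with Ocln at 4.70 and 4.93 CPM and Tek at 0 in both. Neuronal genes had 2.69 and 5.15 CPM, a ratio of 1.91 (1.44 to 2.58) that passed 2-fold after TMM (log2 ratio 1.17), with 3 of 5 tested genes higher, 1 lower and Snap25 at 1.41 and 3.23 CPM. Astrocyte and oligodendrocyte genes had 57.2 and 57.1 CPM, with Mbp at 50.5 and 39.3 CPM, a sum whose direction changed with the scaling.

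**Figure D5:**
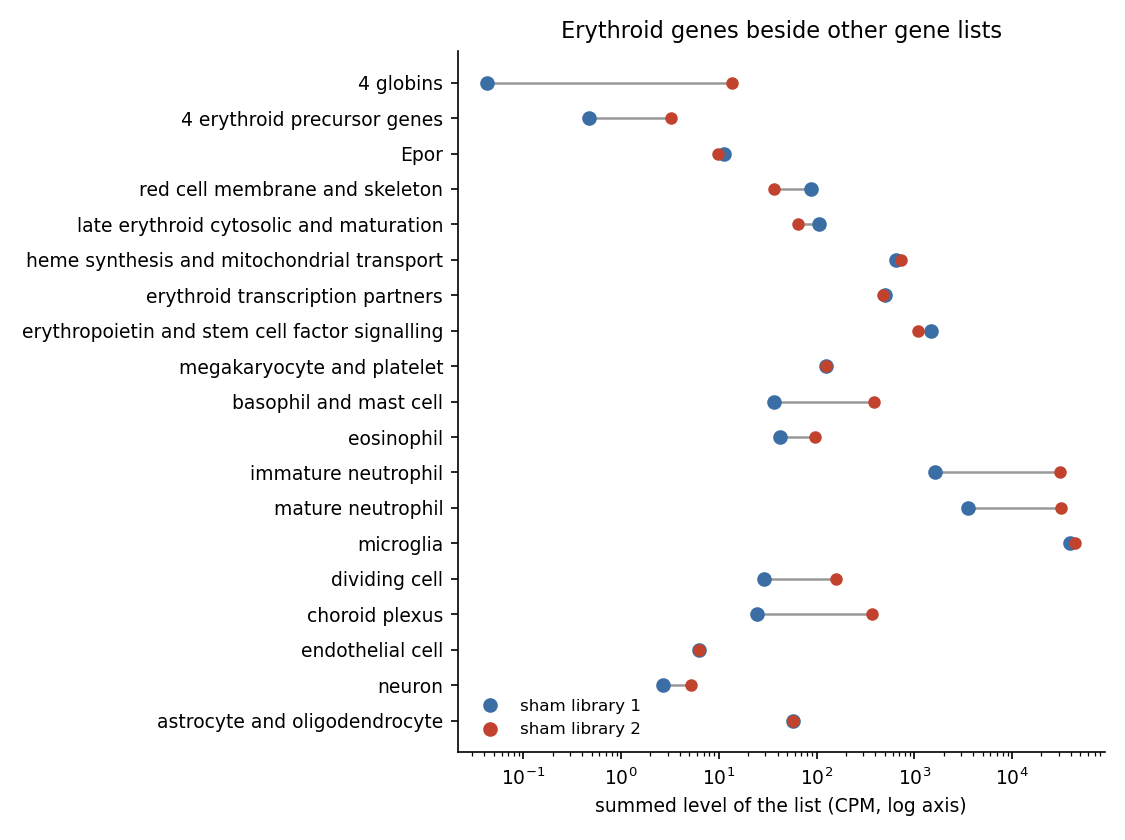
Summed level of the 4 globins, the 4 precursor genes, Epor and the other gene lists in sham library 1 and sham library 2 (x axis, CPM on a log axis, a line joins the 2 libraries of a list). The globins span the widest range, from 0.0428 to 13.6 CPM, the precursor, neutrophil, basophil, dividing cell and choroid plexus sums are also higher in library 2, and the points of Epor, the heme synthesis genes and the microglia markers lie close together.

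Genes whose counts averaged 100 or more were ranked by likeness, and 5 had a log2 ratio nearest to the 6.73 of the summed globins, computed with counts under 3 set to 3, which sets the 1 globin count of library 1 to 3 and so gives a smaller ratio than the 318 of the raw counts. Krt83 had 4 and 1024 counts (log2 ratio 7.18), the mast cell and basophil protease gene Cpa3 had 2 and 312 (5.89), 1700047M11Rik had 3 and 299 (5.82), Tmem45a2 had 2 and 285 (5.75) and Mogat2 had 6 and 562 (5.73). The likeness is that of 1 ratio between 2 libraries.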

How the data were processed

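RNA of sorted microglia was copied to cDNA with the SMART-Seq HT kit, which starts from polyadenylated RNA, tagmented with Nextera XT and sequenced in pairs of 75 bases. Reads were aligned by the authors with HISAT2 (GRCm38) and assigned to Ensembl genes with HTSeq. What was deposited are raw counts, which the authors had not scaled. Tool versions, the annotation release, the strand setting and the handling of reads that match several genes are not given in the sources used here. Identifiers were matched to GENCODE M21 names for 53620 of 53801 genes, and 52056 of these had the same start and end there, all 9 members among them.

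CPM used the counts on all genes. Single levels have exact Poisson intervals, ratios exact binomial intervals and shares Wilson intervals. A gene was set beside the others where a library held 10 counts or more, with counts under 3 set to 3 and a difference counted past 2-fold. With 1 group no test was run. Library 2 is 1.76 times as deep, so its levels carry less counting error. TMM and dispersion came from edgeR 4.0.16 and size factors from DESeq2 1.42.0 (R 4.3.3), and the dispersion step was tested on simulated counts. Other steps used Python 3.11.15, numpy 2.4.6, pandas 2.3.3, scipy 1.17.1 and matplotlib 3.10.9. Promoters are those of RefSeq.

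The members and lists were chosen with earlier results of these data known. Named were the 9 members, up to 4 genes of highest level in each erythroid list, the gene of highest level in each cell type list, genes at 0 in both libraries, genes beside or overlapping a member, and the 5 genes with ratios nearest to that of the summed globins. Values were recomputed with TMM or DESeq2 scaling, with totals without mitochondrial or neutrophil genes, other filters on low counts, shares without Epor, and leaving out each library. Some genes that this rule covers are not reported here.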

Additional observations from a re-analysis of the deposited data

How the results depend on the processing

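No paired analysis was possible because there is 1 group, with no number shared with another. Of 104 ratios recomputed under other scalings and totals, 64 moved by less than their counting interval, 32 moved beyond it in the same direction and 8 changed direction. The log2 ratio of Epor went from -0.22 to 0.0072 with TMM and 0.052 with DESeq2 size factors. That of the transcription partners went from -0.08 to 0.15, 0.19 and, with totals that leave out the neutrophil lists, 0.0052. That of the astrocyte and oligodendrocyte genes went from -0.0033 to 0.23, 0.27 and 0.083. The scalings shift all genes by the same amount. Genes over 2-fold higher in library 2 numbered 772 (5.74% of those tested) with at least 10 counts in both libraries and 900 (7.62%) with at least 50 counts in a library, against 1755 (11.2%). The globin share without Epor was 8.33% in library 1 and 80.6% in library 2. Leaving out 1 library gives the other's value, so the summed globins ranged from 0.0428 to 13.6 CPM and the precursor genes from 0.470 to 3.28 CPM, which says nothing about stability. The coefficient of variation was 0.550 without a filter and 0.477 with DESeq2. In library 1, 4 of the 8 members other than Epor have no count, so their levels there are limits, and 6 of the 8 have 3 counts or fewer, so their ratios have wide intervals.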
